A study of Mus musculus with 10 samples.

Results

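The genes described here are RNA helicases of the DEAD-box and DEAH-box families (symbols beginning Ddx or Dhx, leaving out Dhx40), RNA-binding motif proteins (Rbm), and subunits of the spliceosome (Sf3, Prpf, Snrnp, U2af or U2surp). They were taken by symbol from the tables of intronic polyadenylation sites, whichever way the sites moved. They came to 34 genes of the 1453 in those tables, with 49 distinct sites and 55 entries of 2311 over all comparisons, since a site can be listed in more than 1 comparison. At such a site the transcript is cleaved and polyadenylated within an intron, which shortens it. Its usage is given below as the percentage of site reads among site and last-exon reads in a library. Read numbers per library are unscaled unless said otherwise. That a site is intronic rests on the authors' tables, and positions are those of the mouse build mm9, counted from 1.

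Polyadenylated 3' ends were sequenced in 10 libraries, 2 for each of 5 groups of cultured mouse mammary tumour cells of the 4T1 family. The lines 67NR and 168FARN are labelled non-invasive and the lines 4T07 and 4T1 invasive, and the study's design calls these pairs non-metastatic and metastatic. The last group, 4T1-U1-ASO, was 4T1 cells given an antisense morpholino oligonucleotide against U1 small nuclear RNA with a delivery reagent. The design names a mock-transfected control for it, but no treatment is labelled for the 4T1 libraries. No age, genotype or time is given for the cells, and the labels do not tell whether a pair of libraries stands for separate cultures. The p-values below therefore speak of the spread between libraries, which can be technical in part or in whole. The peak lists held 1427728 to 3347776 reads per library. The lowest value belongs to 67NR replicate 2, whose list covers 10 chromosomes. The line labels could not be checked by marker levels: of 10 epithelial and mesenchymal markers, 3 (Cdh1, Vim and Fn1) were named in the tables, which give site and last-exon reads for listed genes only.

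Splicing removes introns in a cycle of complexes. The U1 particle first binds the 5' splice site, the U2 particle with its SF3a and SF3b subcomplexes binds the branch point with the help of U2AF, and the tri-particle of U4, U6 and U5 then joins. DEAD-box and DEAH-box helicases use ATP to remodel RNA at steps of this cycle and in ribosome assembly, export and decay. U1 is also known to protect transcripts from premature cleavage and polyadenylation at cryptic signals in introns.

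With the U1 oligonucleotide, 44 sites in 31 of these genes were listed, against 1561 sites in 1131 genes in the whole table. The authors' deposited table listed 41 of the 44 with higher usage and 3 with lower usage than in 4T1, where 87.6% of all sites in that table were listed higher and 12.4% lower. The direction of the group is thus close to that of the table. At the 41 sites the median usage was 6.33% with the oligonucleotide and 1.09% in 4T1, and over the 1368 sites listed higher in the whole table it was 5.17% and 0.739%. Usage reached at least 10% with the oligonucleotide at 14 of the 41 sites and at 413 of the 1368. The library values of both groups did not overlap at any of the 44 sites, as at 99.9% of all sites in the table. In bulk RNA, a site used in more cells and a site used more in each cell cannot be told apart.

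**Figure D1:**
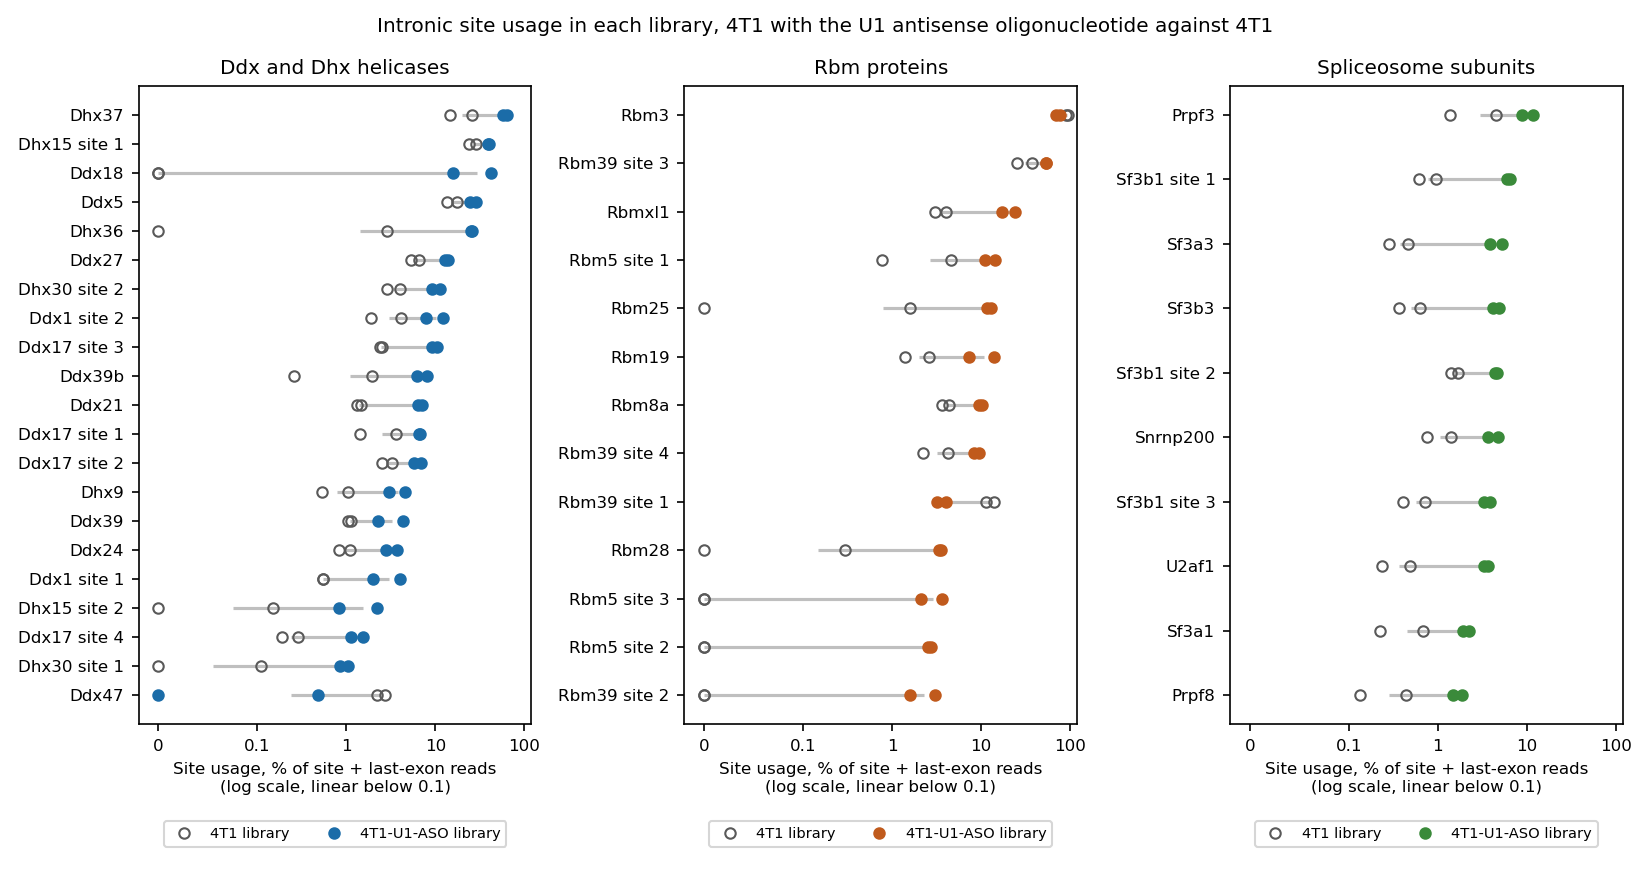
Usage of the 44 sites in each library, in % of site and last-exon reads on a log axis that is linear below 0.1. Open circles are the 2 libraries of 4T1, filled circles the 2 libraries of 4T1-U1-ASO, grey lines join the group means, and sites of a gene are numbered 5' to 3'. Filled circles lie to the right except at Ddx47, Rbm3 and the first site of Rbm39.

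Among the 15 helicase genes, 20 of 21 sites were listed higher, where 87.6% of all sites in the table were. The largest deposited change was in Ddx18, a nucleolar helicase of ribosome biogenesis, at chr1:123462134-123462281. This site had 3 and 14 reads in the U1-ASO libraries beside 16 and 19 last-exon reads, and 0 reads in both 4T1 libraries beside 62 and 91. Usage was 29.1% ± 18.8 (SD, n = 2) with the oligonucleotide. A count of 0 allows up to 1.96% in 4T1 (3 reads over the last-exon reads of the group, counting error only). In the authors' deposited table its log2 fold change was 3.67 (SE 0.78). The U1-ASO libraries differ widely at this site, but both lie above that limit.

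Dhx15, the helicase that takes apart spliceosomes after splicing, had 2 listed sites 25.7 kb apart. The one nearer the start of the gene, chr5:52575850-52576146, had 422 and 412 reads with the oligonucleotide and 266 and 334 in 4T1. Its usage was 39.7% ± 1.04 against 26.3% ± 3.32 (SD, n = 2 each). Scaled by the authors' size factors, its mean site signal was 331 against 357 and passed no test (log2 change -0.11, edgeR adjusted p = 0.64). The other, chr5:52550116-52550354, had 15 and 5 reads against 1 and 0, and its usage was 1.52% ± 0.993 against 0.0755% ± 0.107. Both sites were listed higher, the first with the smaller log2 change in the authors' deposited table (0.86, SE 0.32, against 2.90, SE 0.73), although the first carried many more reads.

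Ddx5 and Ddx17 are closely related helicases with roles in transcription and splicing. Ddx5 had 293 and 393 site reads with the oligonucleotide and 132 and 177 in 4T1 at chr11:106645751-106646819, and its usage was 26.5% ± 3.28 against 15.5% ± 2.81 (SD, n = 2 each). Ddx17 had 4 listed sites, all higher. Its most used site with the oligonucleotide, chr15:79362592-79363629, had 111 and 101 reads against 13 and 18, for a usage of 9.70% ± 0.903 against 2.46% ± 0.103. At the other sites of Ddx17 usage was 6.62%, 6.33% and 1.34% with the oligonucleotide and 2.53%, 2.91% and 0.238% in 4T1. In both genes the site reads alone rose, at 1 site of Ddx5 and 3 of Ddx17, while the last-exon reads passed no test. The rise at Ddx5 (log2 change 0.57, edgeR adjusted p = 0.0148) was lost with DESeq2 (adjusted p = 0.108). It was also lost without 4T1-U1-ASO replicate 1 or replicate 2 (log2 change 0.76 and 0.35). The log2 change of the Ddx5 last exon was -0.44 with all libraries, -0.64 without 4T1 replicate 1 and -0.20 without 4T1 replicate 2. The rise at the Ddx17 site chr15:79367911-79368310 was lost without 4T1-U1-ASO replicate 2 (adjusted p = 0.0832).

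Dhx36, which unwinds G-quadruplexes, had 35 site reads in each U1-ASO library and 0 and 2 in 4T1 at chr3:62288069-62288214. Its usage was 25.3% ± 0.645 against 1.43% ± 2.02 (SD, n = 2 each). The last exon of Dhx36 had 101 and 106 reads with the oligonucleotide and 12 and 68 in 4T1, so both 4T1 libraries differ from each other at its last exon. The log2 change of the Dhx36 last exon was 0.86 with all libraries, 0.22 without 4T1 replicate 1 and 2.3 without 4T1 replicate 2. Ddx39b, a helicase of splicing and mRNA export, had 35 and 28 site reads against 2 and 16, with a usage of 7.14% ± 1.38 against 1.09% ± 1.17. Dhx30, which acts in mitochondrial ribosome assembly, had 2 listed sites, at 0.948% against 0.0548% and at 10.3% against 3.43%. Dhx37, a helicase of small-subunit ribosome assembly, had the highest usage of the helicases with the oligonucleotide, 60.7% ± 4.20 against 20.1% ± 7.74, on 8 and 11 last-exon reads against 32 and 35. Its site reads were 14 and 15 against 11 and 6. The high usage of Dhx37 thus came with few last-exon reads.

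The remaining helicase sites listed higher were those of Ddx1 (2 sites), Ddx21, Ddx24, Ddx27, Ddx39 and Dhx9, with usage from 3.02% to 13.4% with the oligonucleotide. Ddx39 is an older symbol of Ddx39a. The exception was Ddx47, a helicase of ribosomal RNA processing. Its site at chr6:134970635-134970708 had 0 and 1 reads with the oligonucleotide and 9 and 7 in 4T1, so usage was 0.238% ± 0.337 against 2.46% ± 0.355 (SD, n = 2 each). The log2 change in the authors' deposited table was -1.91 (SE 0.76, adjusted p = 0.079). The site of Ddx47 therefore went against the other 20 helicase sites. Without 4T1-U1-ASO replicate 1 the fitted change of Ddx47 no longer passed (edgeR adjusted p = 0.0932).

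Among the 8 Rbm genes, 11 of 13 sites were listed higher, where 87.6% of all sites in the table were. Rbm39, a splicing factor related to U2AF, had 4 listed sites that did not move together. The site nearest the start of the gene, chr2:156005616-156005947, had 36 and 33 reads with the oligonucleotide and 26 and 62 in 4T1, and its usage was 3.60% ± 0.577 against 12.7% ± 1.96 (SD, n = 2 each). The next site, 4.36 kb downstream, had 27 and 16 reads against 0 and 0, for a usage of 2.30% ± 1.03 where a count of 0 allows up to 0.467% in 4T1. The site after that had 1007 and 1138 reads against 93 and 166, for 53.5% ± 0.476 against 31.3% ± 8.14. The last had 79 and 105 against 7 and 11, for 8.94% ± 0.777 against 3.23% ± 1.43. The first site was thus listed lower and the other 3 higher. The authors' deposited table gives their log2 changes, from 5' to 3', as -1.61, 2.64, 1.27 and 1.44.

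**Figure D2:**
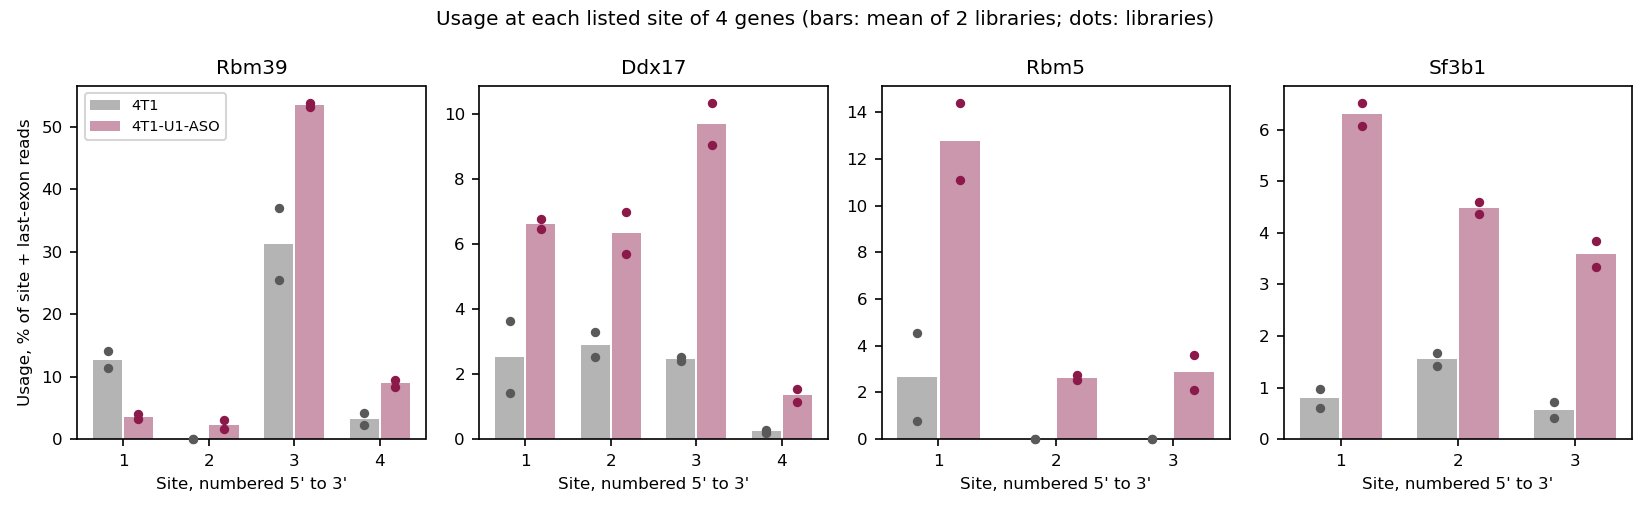
Usage, in % of site and last-exon reads, at each listed site of the 4 genes with at least 3 sites, numbered 5' to 3'. Bars are means of 2 libraries and dots the libraries, 4T1 in grey and 4T1-U1-ASO in red; each panel has its own scale. Site 1 of Rbm39 is the only one of these 14 sites where the red bar is lower than the grey one.

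Rbm5, a splicing regulator of apoptosis genes, had 3 listed sites, all higher. The first, chr9:107661916-107662198, had 36 and 29 reads with the oligonucleotide and 1 and 8 in 4T1, with a usage of 12.8% ± 2.33 against 2.66% ± 2.67 (SD, n = 2 each). The next sites of Rbm5 had 6 and 6 and 8 and 5 reads against none in either 4T1 library, so usage was 2.62% and 2.86% where a count of 0 allows up to 1.01%. Rbm25, another splicing regulator, had 61 and 49 site reads against 0 and 3 and a usage of 12.3% ± 0.888 against 0.802% ± 1.13. Rbm28, a nucleolar protein, had 9 and 9 site reads against 0 and 1 and a usage of 3.46% ± 0.122 against 0.148% ± 0.209. At each of these genes all U1-ASO values lay above all 4T1 values, where the groups did not overlap at 99.9% of all sites in the table.

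Rbmxl1 had a usage of 20.7% ± 4.77 against 3.54% ± 0.653 (SD, n = 2 each). It is a near-identical copy of Rbmx, so reads could have been split between both genes and its values are uncertain. Rbm19, a ribosome assembly factor, was at 10.7% ± 4.66 against 1.99% ± 0.854, and Rbm8a, a core protein of the exon junction complex, at 9.83% ± 0.557 against 3.99% ± 0.498. Rbm3, a cold-inducible RNA-binding protein, was the other exception. Its site at chrX:7719474-7719537 had 35 and 44 reads with the oligonucleotide and 66 and 90 in 4T1, beside 15 and 13 last-exon reads against 4 and 9. Usage of the Rbm3 site was 73.6% ± 5.09 against 92.6% ± 2.39, the highest level in 4T1 of the 44 sites. The log2 change in the authors' deposited table was -1.70 (SE 0.62, adjusted p = 0.056). Without 4T1-U1-ASO replicate 1 the fitted change of Rbm3 no longer passed (edgeR adjusted p = 0.0645).

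All 10 sites in the 8 genes of spliceosome subunits were listed higher, where 87.6% of all sites in the table were. Their median usage in 4T1 was 0.534%, against 0.739% over all sites listed higher. Their usage in 4T1 ran from 0.286% to 2.95% and with the oligonucleotide from 1.70% to 10.3%. Sf3b1, the largest SF3b subunit, which holds the branch point, had 3 listed sites. Its first, chr1:55071325-55071604, had 49 and 43 reads with the oligonucleotide and 4 and 6 in 4T1, for a usage of 6.30% ± 0.319 against 0.789% ± 0.251 (SD, n = 2 each). The sites of Sf3b1 that follow, 8.30 kb and a further 11.9 kb downstream, were at 4.47% ± 0.164 against 1.55% ± 0.187 and at 3.59% ± 0.348 against 0.567% ± 0.225. In the group means, usage with the oligonucleotide was highest at the first Sf3b1 site and lowest at the last, an order that was not tested.

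Of the other U2 subunits, Sf3a3 had 8 and 11 site reads against 1 and 2 and a usage of 4.57% ± 1.05 against 0.373% ± 0.126 (SD, n = 2 each). Sf3b3 had 12 and 13 site reads against 3 and 6, for 4.54% ± 0.569 against 0.501% ± 0.193, and Sf3a1 had 7 and 7 against 1 and 3. U2af1, the subunit of U2AF that recognises the end of the intron, had 8 and 9 reads against 1 and 2, for 3.54% ± 0.257 against 0.365% ± 0.182. In the authors' deposited table Sf3a3 and Sf3b3 both had a log2 change of 2.72 and U2af1 one of 2.44. Among proteins of the later complexes, Prpf3 of the U4 and U6 particle had the highest usage, 10.3% ± 2.12 against 2.95% ± 2.25. Snrnp200, the helicase that unwinds U4 from U6, was at 4.20% ± 0.777 against 1.07% ± 0.455, and Prpf8, the central scaffold of the catalytic core, at 1.70% ± 0.273 against 0.286% ± 0.217.

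Usage is a ratio, so site and last-exon reads were also tested apart, with edgeR's quasi-likelihood test over all listed sites of the table and an adjusted p under 0.05. Of the 44 sites, 28 had enough reads for the test of site reads alone. In it 16 rose, where 53.4% of all sites tested rose, and 2 fell, where 16.0% did. The last exon fell in 22 of the 31 genes and rose in 2, where 55.1% of all listed genes fell and 9.16% rose. Calls for site and last exon both rest on the authors' size factors. These multiply reads by 0.798 and 0.788 in the U1-ASO libraries and by 1.386 and 1.034 in 4T1. The peak lists held 2596503 and 2643219 reads in the U1-ASO libraries and 2499475 and 2795040 in 4T1. How many calls would hold with libraries scaled to those reads was not tested. The median log2 change of the last exon was -1.26 over the 31 genes and -0.66 over all 1125 genes tested. TMM scaling moved the median of all last exons by 0.147, and under it 21 of the 22 falls passed, with Rbm28 the exception (adjusted p = 0.0657). The TMM factors were estimated from the listed sites and their last exons alone, which had been selected for a change. They are thus no outside check on the authors' size factors. Rises of site reads numbered 10 without 4T1-U1-ASO replicate 1, and 26 without the filter on low counts, when all 44 sites were tested.

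**Figure D3:**
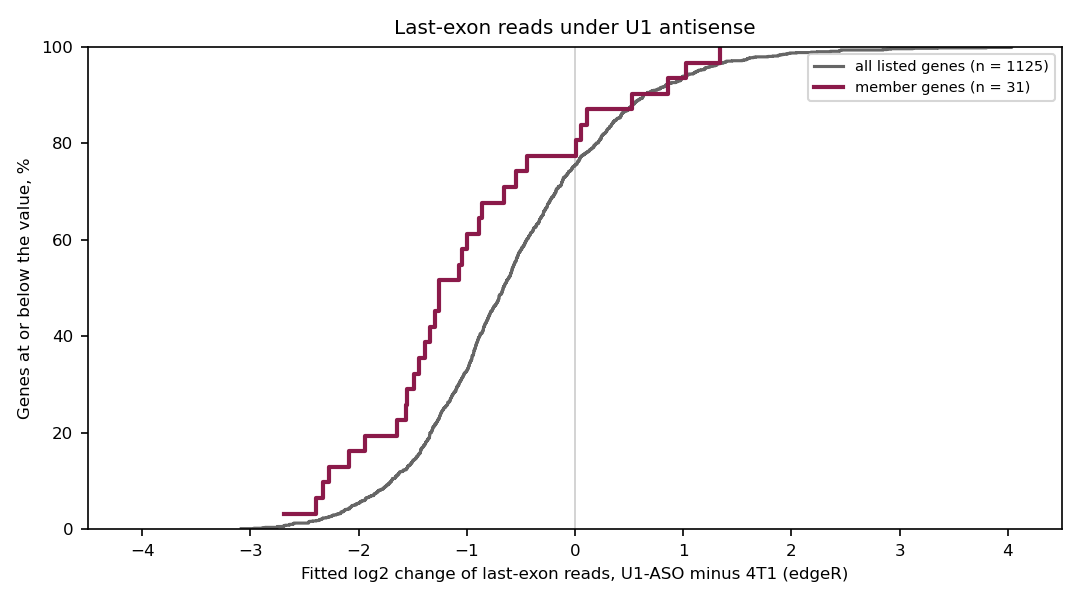
Share of genes, in %, at or below each fitted log2 change of last-exon reads (4T1-U1-ASO minus 4T1, edgeR), for all 1125 listed genes tested (grey) and the 31 genes described here (red). The red curve lies to the left of the grey one over most of the range, with medians of -1.26 and -0.66.

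The last exon fell in 12 of 15 helicase genes, 6 of 8 spliceosome genes and 4 of 8 Rbm genes, against 55.1% of all listed genes. The median log2 change was -1.34, -1.26 and -0.33 in these families, and differences between families were not tested. The lowest value was that of Ddx18 (log2 change -2.69, edgeR adjusted p = 0.000379), whose last-exon reads are given above. Dhx37 followed at -2.39 and Sf3b3 at -2.33. Sf3b3 had 278 and 250 last-exon reads with the oligonucleotide and 820 and 936 in 4T1. Dhx9, known as RNA helicase A, had 223 and 167 against 376 and 939, a log2 change of -2.27 (edgeR adjusted p = 0.000973). Ddx39 had 515 and 598 against 1577 and 1506. In each of these genes both U1-ASO libraries were below both 4T1 libraries in last-exon reads.

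The 41 sites listed higher divide by which reads moved. At 10 of them the last exon fell and the site reads passed no test, among them Sf3b3, Ddx21, Ddx27, Dhx37, Snrnp200 and the first site of Dhx15. Their fitted site changes ran from -0.47 (Ddx39) to 0.88 (Sf3b3) in log2. At 12 more, in genes such as Ddx18, Dhx9, U2af1 and Sf3a3, the last exon fell and the site had too few reads for its own test. At 10 sites the site reads rose and the last exon passed no test with all libraries fitted. These were 3 of Ddx17, 3 of Sf3b1, and 1 each of Ddx5, Dhx36, Prpf3 and Rbm5. In Sf3b1, Ddx5 and Dhx36 the size of the last-exon change depended on which 4T1 library was used. At 2 sites, in Ddx39b and Rbmxl1, the site rose and the last exon fell, and at 4, in Rbm25 and Rbm39, both rose. The other 3 sites, of Ddx17 and Rbm5, had too few site reads and no last exon past the test. The same division was not made over all listed sites, so it cannot be read as particular to these genes. Taken apart, site reads rose at 53.4% of all sites tested and the last exon fell in 55.1% of all listed genes.

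This division rests on the scaling of the libraries and depends in part on the fit. Over the 8 alternative fits, 9 of the 16 rises of site reads and 17 of the 22 falls of the last exon passed in every fit. The rise at Ddx39b (log2 change 1.24, edgeR adjusted p = 0.0213) was lost with DESeq2 (adjusted p = 0.164), without either U1-ASO library (0.201 and 0.0543) and without 4T1 replicate 1 (log2 change 0.59, adjusted p = 0.197), and that at Rbmxl1 (adjusted p = 0.0489) in 5 of the 8. At Sf3b1, the rise at the middle site (adjusted p = 0.048) was lost with the replicate block (0.0583), with DESeq2 (0.201), without either U1-ASO library (0.193 and 0.151) and without 4T1 replicate 1 (0.0901), and that at the last site without 4T1-U1-ASO replicate 1 (0.054). The log2 change of the Sf3b1 last exon was -0.54 with all libraries, -0.90 without 4T1 replicate 1 and -0.07 without 4T1 replicate 2. The rise at Prpf3 was lost with DESeq2 (adjusted p = 0.0866) and without either U1-ASO library (0.0525 and 0.0797). Falls of the last exon were lost without a U1-ASO library in Ddx1, Dhx15, Rbm28, Rbm8a and Sf3a1. Of the 3 sites listed lower, site reads fell at Rbm3 (log2 change -1.56, edgeR adjusted p = 9.87e-07) and at the first site of Rbm39 (-0.90, adjusted p = 0.0111). The fall at Rbm39 was lost with DESeq2 (adjusted p = 0.153) and without 4T1-U1-ASO replicate 1, 4T1-U1-ASO replicate 2 or 4T1 replicate 2 (adjusted p = 0.145, 0.219 and 0.355). The last exon of Ddx47 fell, and its site was not tested alone.

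**Figure D4:**
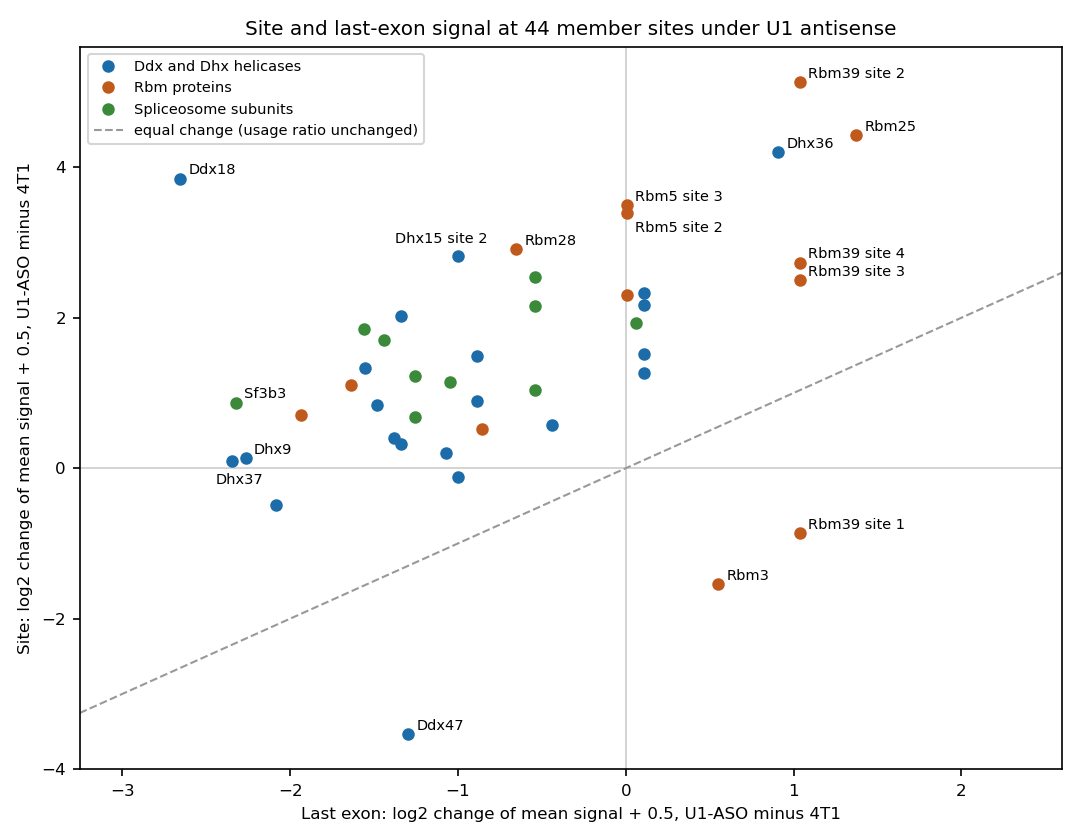
Log2 change of mean normalized signal, after adding 0.5, at the 44 sites (vertical) and at the last exon of the same gene (horizontal), 4T1-U1-ASO minus 4T1, coloured by family. On the dashed line site and last exon change equally; 41 sites lie above it and Ddx47, Rbm3 and site 1 of Rbm39 below.

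Rbm25 and Rbm39 were the genes whose last exon rose. The last exon of Rbm25 had 409 and 369 reads with the oligonucleotide and 34 and 184 in 4T1, a log2 change of 1.34 (edgeR adjusted p = 0.0417). That of Rbm39 had 863 and 1002 against 158 and 484, a log2 change of 1.03 (edgeR adjusted p = 0.0325). Both rises were lost under TMM scaling (adjusted p = 0.0775 and 0.0589), and that of Rbm25 with DESeq2 (adjusted p = 0.189). After scaling, 4T1 replicate 2 exceeded replicate 1 by 2.003 in log2 at the last exon of Rbm25, by 1.19 at that of Rbm39 and by 2.05 at that of Dhx36. A gap over 1 was found at 3 of 30 last exons of these genes with enough reads and at 6.45% of all listed genes. Without 4T1 replicate 1 the changes were 0.70 in Rbm25 and 0.56 in Rbm39, and without 4T1 replicate 2 they were 2.71 and 1.76. The direction held in each case, and its size rests on which 4T1 library is used. What part this gap has in the changes was not tested.

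Other genes of the splicing machinery formed a list of 88 symbols that the rule above does not take. Of these, 18 were listed with the oligonucleotide at 19 sites, all 19 higher, where 87.6% of all sites in the table were, with a median log2 change of 1.73 in the authors' deposited table against 1.90 over the 44 sites and 1.85 over all sites. The largest was the second listed site of Srrm2, a protein of the splicing speckles, at 24.4% ± 4.45 against 2.195% ± 0.677 (SD, n = 2 each), with a deposited log2 change of 3.31. Wtap, a subunit of the RNA methylation complex, followed at 25.8% ± 0.570 against 1.29% ± 0.391. Between lines, 1 gene of this list was listed: Txnl4a, with 2 sites, both higher in 4T07 than in 168FARN. With the oligonucleotide, several listed sites were found in 7 of the 31 genes, 22.6%, and in 23.7% of all listed genes.

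Between the tumour lines, 6 of these genes were listed, at 6 sites and in 11 entries of 750. By the authors' deposited lists usage was higher in the metastatic line in 5 entries and lower in 6, where 20.7% of all entries were higher and 79.3% lower. The library values of both lines did not overlap in any of the 11 entries, as in 99.3% of all entries. The entries are few and repeat the same sites and libraries: Snrnp35 was listed in all 4 comparisons and made up 4 of the 5 higher entries, and Prpf31 was listed in 3. The 4 comparisons use each line in 2 of them, so they are not independent of each other.

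Snrnp35 encodes a protein of the U11 and U12 particle, which recognises the rare minor class of introns. Its site at chr5:124938911-124939335 had 0 and 1 reads in 67NR, 0 and 0 in 168FARN, 14 and 20 in 4T07 and 4 and 5 in 4T1. The last exon had 269 and 258, 178 and 188, 122 and 117, and 66 and 77 reads in the same order. Usage was 0.193% ± 0.273 in 67NR, 12.4% ± 3.04 in 4T07 and 5.91% ± 0.271 in 4T1 (SD, n = 2 each), and a count of 0 allows up to 0.820% in 168FARN. Both metastatic lines thus lay above both non-metastatic lines in every library. The libraries of 4T07 (10.3% and 14.6%) also lay above those of 4T1 (5.71% and 6.10%), a pair not compared in the tables used here, while 67NR and 168FARN overlapped.

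The authors' deposited tables give Snrnp35 a log2 change of 3.20 (SE 0.53) in 4T07 and 2.08 (SE 0.53) in 4T1 against 67NR, and 3.33 (SE 0.56) and 2.11 (SE 0.54) against 168FARN. Site reads alone rose in 4T07 against both lines, where 18.5% of all entries tested rose, and the site had too few reads in the 4T1 comparisons. Without 4T07 replicate 2 the rise against 67NR did not pass (edgeR adjusted p = 0.0636) and the site was too low to test against 168FARN. The last exon of Snrnp35 fell in all 4 comparisons in edgeR's test, where 22.2% of all entries fell. Its log2 changes were -0.94 and -0.55 in 4T07 against 67NR and 168FARN, and -1.55 and -1.11 in 4T1. The fall in 4T07 against 168FARN was lost without 4T07 replicate 2, 168FARN replicate 1 or 168FARN replicate 2 (edgeR adjusted p = 0.142, 0.0701 and 0.0604). The higher usage in 4T1 thus rests on 4 and 5 site reads beside a lower last exon.

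Prpf31 encodes a protein of the U4 and U6 particle that is needed to join it to U5. Its site at chr7:3582042-3583076 had 79 to 211 reads per library. Usage was 38.86% and 39.21% in the libraries of 67NR, 33.26% and 37.35% in 168FARN, 20.95% and 25.69% in 4T07 and 17.74% and 20.72% in 4T1. The group means were 39.0% ± 0.250, 35.3% ± 2.89, 23.3% ± 3.35 and 19.2% ± 2.11 in that order (SD, n = 2 each). Every library of a non-metastatic line lay above every library of a metastatic line. The libraries of 67NR also lay above those of 168FARN and those of 4T07 above those of 4T1, the latter narrowly (20.95% against 20.72%), and these pairs were not compared in the tables used here. The comparison of 4T1 with 168FARN did not list the site.

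Site reads of Prpf31 fell in each of the 3 comparisons that list it, where 66.0% of all entries tested fell. The log2 changes were -0.98 in 4T1 against 67NR (edgeR adjusted p = 0.00311), -0.95 in 4T07 against 67NR (adjusted p = 5.95e-05) and -0.87 in 4T07 against 168FARN (adjusted p = 3.49e-05). Its last exon rose in 4T1 against 67NR (log2 change 0.47, edgeR adjusted p = 0.0346), where 45.5% of last exons in all line comparisons rose, and did not pass in the others, except under TMM scaling in 4T07 against 67NR (log2 change 0.38, adjusted p = 0.0252, against 0.13 with the authors' size factors). The rise in 4T1 was lost with DESeq2 (adjusted p = 0.141) and without 4T1 replicate 1, 67NR replicate 1 or 67NR replicate 2 (adjusted p = 0.492, 0.114 and 0.369). The fall of site reads in 4T1 was lost with DESeq2 (adjusted p = 0.0634) and without 4T1 replicate 2 (adjusted p = 0.0733). The last-exon reads ran from 293 to 371 over the 8 libraries.

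**Figure D5:**
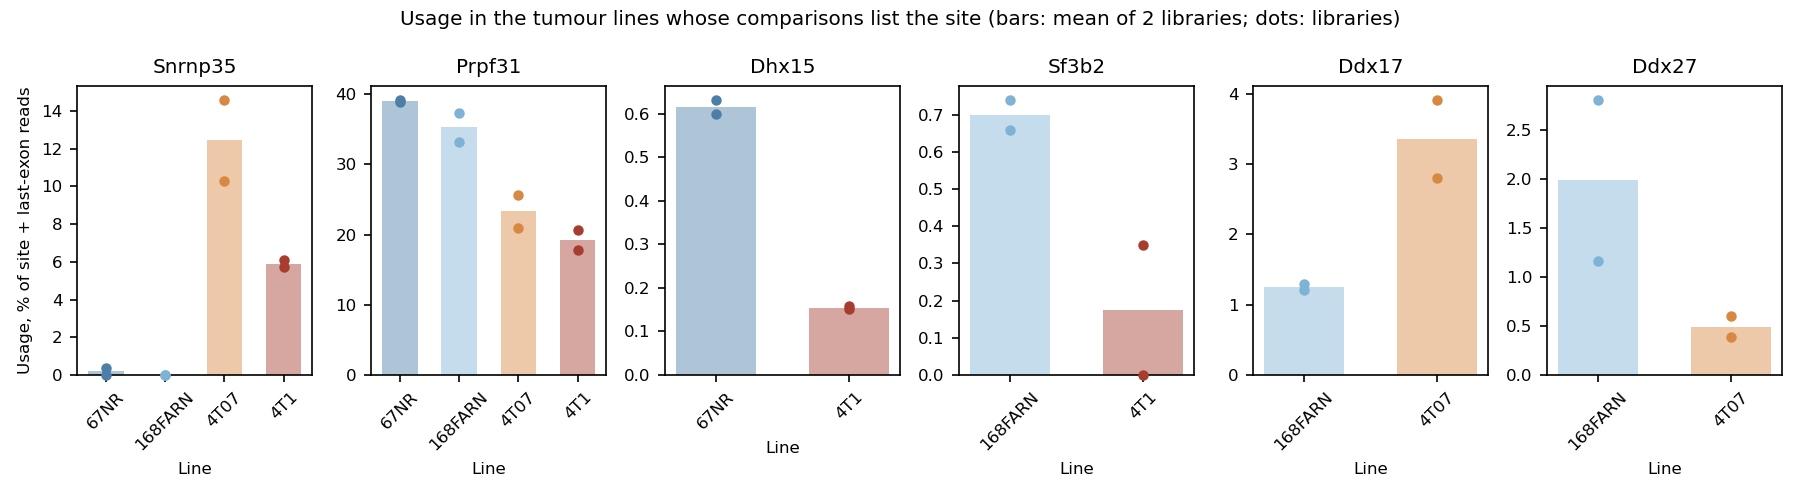
Usage, in % of site and last-exon reads, of the 6 sites listed between tumour lines, in the lines whose comparisons list each site. Bars are means of 2 libraries and dots the libraries; each panel has its own scale. Snrnp35 is higher and Prpf31 lower in both 4T07 and 4T1 than in 67NR and 168FARN.

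The other line sites were each listed once and were used at a few percent or less. At Ddx17, the site chr15:79362592-79363629 had 28 and 48 reads in 4T07 and 8 and 9 in 168FARN, for a usage of 3.35% ± 0.788 against 1.25% ± 0.0579 (SD, n = 2 each). This is the Ddx17 site most used with the U1 oligonucleotide. The last exon of Ddx17 rose too in 4T07 (log2 change 0.74, edgeR adjusted p = 0.000215), where 45.5% of last exons in all line comparisons rose. At Ddx27, a helicase of ribosome biogenesis, chr2:166850825-166851420 had 2 and 4 reads in 4T07 and 12 and 31 in 168FARN, for 0.490% ± 0.151 against 1.98% ± 1.16. The change at Ddx27 did not pass without 4T07 replicate 1 (edgeR adjusted p = 0.057) or without 168FARN replicate 2 (adjusted p = 0.105). It is a different site from that listed with the oligonucleotide, chr2:166858947-166859146, where usage was 13.4% ± 0.649 against 5.92% ± 0.843. In 4T07 against 168FARN the last exon of Ddx27 fell (log2 change -0.76, edgeR adjusted p = 0.000164), where 22.2% of last exons in all line comparisons fell.

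Sf3b2, an SF3b subunit, at chr19:5291121-5291405 had 18 and 20 reads in 168FARN against 7 and 0 in 4T1. Its usage in 4T1 was 0.175% ± 0.248, that in 168FARN 0.700% ± 0.0575 (SD, n = 2 each). The change in usage at Sf3b2 was lost without 4T1 replicate 2 (edgeR adjusted p = 0.0699). Dhx15 at chr5:52550116-52551475 had 17 and 18 reads in 67NR but 3 and 5 in 4T1. Its usage in 4T1 and 67NR was 0.154% ± 0.00440 and 0.616% ± 0.0230 (SD, n = 2 each). This interval shares its 3' end with the less used Dhx15 site of the U1 comparison. The last-exon reads of both 4T1 libraries in this table were exactly 3.0 times those in the U1 table (1983 against 661 and 3174 against 1058), so the usage levels of Dhx15 cannot be set side by side between the tables. Those of 67NR (2673 and 2985) are multiples of 3 as well, so the levels given for both lines are uncertain. In this comparison 17.8% of last exons with at least 50 reads shared a divisor over 1 in all libraries, against 7.46% in the U1 comparison. Only Ddx17, Ddx27 and Dhx15 of the 34 genes were listed both between lines and with the oligonucleotide, and no Rbm gene was listed between lines.

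Whether the sites listed with the oligonucleotide were present in the other lines was looked up in the peak lists. A peak lay at 29 of the 44 sites in at least 1 of the 6 libraries of 67NR, 168FARN and 4T07. In 3 or more of these libraries a peak lay at 12 sites. All listed sites of the U1 comparison were not looked up in this way, so these numbers cannot be called high or low. A missing peak says little, since 77 of 192 member values with reads in a table, 40.1%, had no peak in that library's own list. Where a peak was present, its reads equalled those in the table in 87.0% of cases.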

How the data were processed

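The peak lists were deposited by the authors as whole-number read counts per peak and library. The tables were deposited per comparison. Per the file headers they hold, for the site and the last exon, the normalized signal of each of 4 libraries, and the authors' log2 fold change, its SE and an adjusted p-value, which is at most 0.1 at every listed site. Build mm9, DESeq2 1.4.5, bedtools 2.17.0, SAMtools 1.1 and Bowtie2 2.2.5 were used, per the submitters' processing notes, which assign them to no step. Signals were whole multiples of 1 read at 100% of values (tolerance 0.1 read), and those reads were used. Changes are the metastatic line or U1-ASO minus the other group; this sign matched the signals at all 2311 entries. Tables were normalized separately and fitted separately.

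The edgeR package (version 4.0.16, R 4.3.3) tested these reads by quasi-likelihood (authors' size factors kept, filterByExpr with a minimum count of 10, Benjamini-Hochberg adjusted p under 0.05) for site relative to last exon, site alone and last exon alone. Listed sites had already been selected by the authors, so these p-values are not independent evidence. Tested on simulated data for the U1 comparison over 1561 sites (dispersion 0.05), log2 changes of 2 were recovered at 50.5%, 54.0% and 99.0% of changed sites, with 6, 3 and 14 calls among 1361 unchanged ones. Alternatives were TMM, no filter, DESeq2 1.42.0, a replicate block, each library left out, stricter deposited limits, and other pseudocounts. TMM factors came from the reads of listed sites and their last exons alone. Limits from a count of 0 are 3 reads over the last-exon reads of the group, slightly above the same limit expressed as usage.

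The members, lists and tests were chosen with earlier results of these data known. Named sites are every line site, genes listed in several tables or at 3 or more sites, and in the U1 comparison the 5 largest and 3 most negative deposited changes per family; other member sites are given as values. Of 34 symbols, 33 are current in RefSeq's GRCm38.p6 gene table. No sequence is printed, since none of mm9 was used here.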

Additional observations from a re-analysis of the deposited data

Results flagged for a closer look

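One value rests on reads outside the comparisons above. The first Sf3b1 site of the U1 comparison was not listed between 4T1 and 67NR, but the peak lists of 67NR held 10 and 14 reads there. Scaled with the size factors of the table that holds both lines, this was a mean of 10.5 reads in 67NR (8.99 and 12.1). The 4T1 peak lists hold no peak at the site, and the reads of 4T1 in the U1 table, 4 and 6, come to a mean of 5.48 on the same scale (4.85 and 6.12). The values of both lines come from different kinds of file and are not like for like. The site was noted for the 67NR reads, which no comparison used, and the difference was not tested.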

How the results depend on the processing

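At stricter limits on the deposited adjusted p, the 41 higher U1 sites became 11 at 0.01, the 3 lower ones 0 at 0.05 and 0 at 0.01, the 5 higher line entries 2 at 0.01, and the 6 lower ones 1 at 0.05 and 0 at 0.01. Without the low-count filter, site reads rose at 26 U1 sites in place of 16 and at 5 line entries in place of 3. DESeq2 gave 1 last-exon rise in place of 2 in the U1 comparison and 1 in place of 2 between lines, and 3 falls of line site reads in place of 6. TMM gave 0 last-exon rises in the U1 comparison. The cause of these shifts was not tested, apart from the larger number of sites that enter without the filter.

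Leaving out each library in turn, U1 sites with a rise in site reads numbered 10 to 18 (10 without 4T1-U1-ASO replicate 1), with a fall 1 to 2 (1 without 4T1 replicate 2 or 4T1-U1-ASO replicate 1), and with lower usage 1 to 3 (1 without 4T1-U1-ASO replicate 1). Last-exon falls numbered 18 to 24. Between lines, rises of site reads numbered 1 to 3 (1 without 4T07 replicate 2) and last-exon rises 1 to 2 (1 without 4T1 replicate 1, 67NR replicate 1 or 67NR replicate 2). Of 312 refits of the 39 named site changes, 301 kept direction and call, 11 lost the call and 0 reversed. Changing the pseudocount or using the deposited signal moved 30 of 78 log2 ratios and reversed 0.

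The labels give same-numbered libraries only a number in common. Their deviations correlated at -0.034 to 0.168, which cannot tell whether they shared a batch. With the replicate block, site reads rose at 14 U1 sites, last exons fell in 22 genes, and usage was higher at 41 sites.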
